A study of Mus musculus with 7 samples.

Results

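Integrins are the receptors with which cells hold on to the matrix around them, and 10 of their genes, those usually found in epithelia and in the connective tissue below them, were followed in gentamicin-damaged mouse utricles with and without Fos overexpression. The 10 genes were taken from a list of names, with no threshold on their values, but the list was drawn up with earlier results of these data known. They were the alpha subunits Itga2, Itga3, Itga5, Itga6, Itga8 and Itgav and the beta subunits Itgb1, Itgb4, Itgb6 and Itgb8, out of 32285 genes in the deposited counts. The utricle is a vestibular organ of the inner ear in which a sheet of hair cells and supporting cells rests on a basement membrane over mesenchyme. All 7 libraries came from whole utricles of wild-type C57BL/6J mice at P2, which were kept as explants, were damaged with 2 mM gentamicin for 24 h and were collected at day 5 after injury. In Gent+Fos OE (4 libraries) the explants also received AAV-PHP.eB Fos for 48 h, a virus in which a CMV promoter, active in many cell types, drives mouse Fos. In Gent (3 libraries) the labels name gentamicin alone. Whether these control explants also carried a virus is not settled. The names given to their counts hold letters that can stand for a knockdown vector. The study's legends call the controls Gent-control for the differential expression and a control AAV group for the network of enriched terms. A library was made from a pool of 12 utricles, and replicate error here means the spread of such pools. A bulk library cannot assign a gene to epithelium or stroma, and fewer cells of a type cannot be told apart from less RNA per cell.

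An integrin is a pair of 1 alpha and 1 beta subunit, and the pair sets what the cell can bind. The beta 1 subunit joins most of the alpha subunits listed here and gives receptors for collagen with Itga2, for laminin with Itga3 and Itga6, for fibronectin with Itga5 and for nephronectin with Itga8. Itgav joins several beta subunits to bind proteins that carry the short RGD motif, and with Itgb6 or Itgb8 it releases latent TGF-beta. Itgb4 pairs with Itga6 alone and anchors epithelial cells to laminin in hemidesmosomes. Supporting cells of the inner ear stand on a laminin-rich basement membrane.

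Library totals ran from 27879889 to 34335214 counts. Expression is given as CPM, read counts scaled to a common library total, after TMM normalization, which balances the libraries on the genes they share. Fos itself, on chromosome 12 of mm10 from 85473890 to 85477273, had 149 to 167 CPM with the virus and 34.6 to 40.6 CPM without it (log2 fold change 2.01, standard error 0.13, edgeR quasi-likelihood adjusted p = 0.000142). One library stood apart. In Gent replicate 2 the longer genes had lower log2 CPM relative to the average library (Spearman's rho with length -0.50, a description over genes that are not independent). The 4 Gent+Fos OE libraries lay between 0.12 and 0.33, Gent replicate 1 at 0.15 and Gent replicate 3 at -0.22. The log2 fold changes of the genes tested rose with length (rho 0.38, and 0.19 without Gent replicate 2). Leaving out Gent replicate 2 therefore lessened this trend but did not remove it. The same library gave 2.86% of its counts to mitochondrial genes, against 1.74% to 1.99% elsewhere, and 6.01% to its 10 most counted genes, against 4.74% to 5.31%. The part of these shares in the integrin values was not tested. The integrin genes are long. Of the 10, 9 are longer than the median tested gene of 4084 exonic bases, and their own median is 7122. Values without this library, or after removal of each library's length trend, are therefore given beside integrin results that they move.

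No integrin gene of the 10 passed the test. All 10 were among the 17155 genes compared by edgeR's quasi-likelihood test. To be called, a gene needed an adjusted p (Benjamini-Hochberg) below 0.01 together with a log2 fold change of more than 0.25 in size. At these limits 0.134% of all genes tested were called higher and 0.28% lower, and 0 of the 10 integrins were called in either direction. Before adjustment, with p under 0.05 and that fold limit, 2 of the 10 were higher (Itgav and Itgb4) and 0 were lower, against 11.1% of all genes tested higher and 13.4% lower. DESeq2 called 0 of the 10 as well, while it called 1.3% of its genes higher and 1.56% lower.

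The point estimates lay mostly above 0. Log2 fold changes of Gent+Fos OE over Gent were above 0 for 9 of the 10 integrins, with a median of 0.37, while 49.9% of all genes tested were above 0 and their median was -0.00075. After each library's length trend was removed, 9 were still above 0 but the median was 0.17. Without Gent replicate 2 the median was 0.14, and without it and Gent+Fos OE replicate 2 together, a choice made after seeing the data, 7 of the 10 were above 0 with a median of 0.11. The beta subunits kept 4 of 4 above 0 in each of these settings, with medians from 0.24 to 0.47, and the alpha subunits went from 5 of 6 above 0 with all libraries to 3 of 6 without both.

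**Figure D1:**
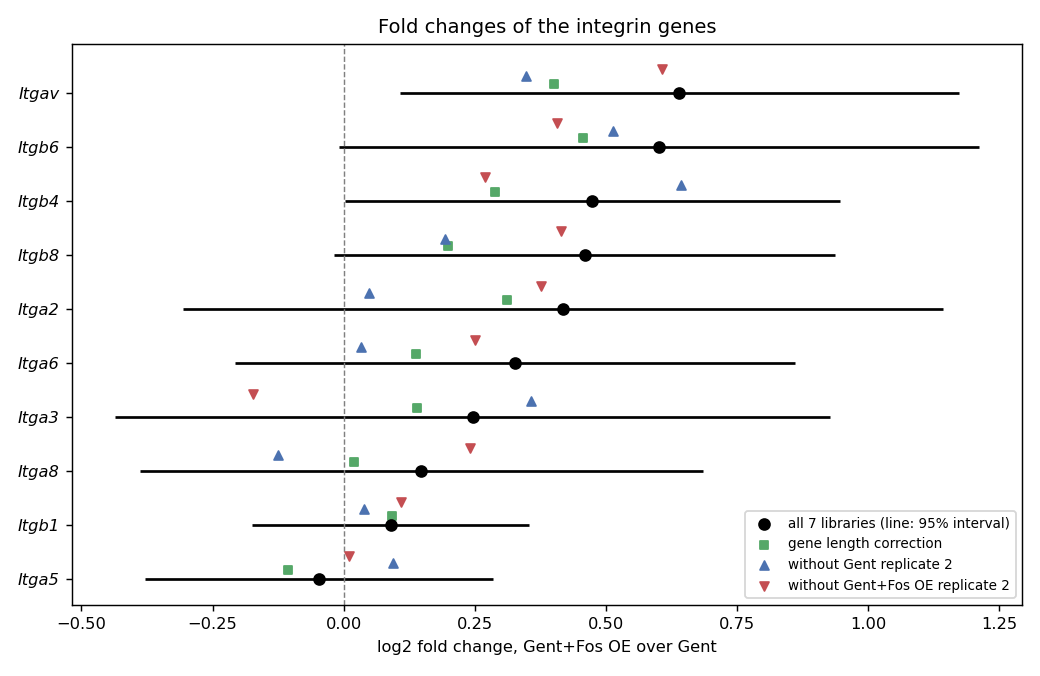
Log2 fold change of each integrin gene, Gent+Fos OE over Gent, from edgeR's fit on all 7 libraries (black points, lines are 95% intervals) and under 3 other settings (coloured marks). Only the intervals of Itgav and Itgb4 lie wholly above 0, and for most of the long genes the estimates without Gent replicate 2 or with the length correction lie closer to 0.

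Read per exon length, the receptor most represented in the RNA was the common partner. Itgb1 had 321 ± 20.1 RPKM (CPM per kilobase of exon; SD, n = 4) in Gent+Fos OE and 301 ± 24.2 RPKM (SD, n = 3) in Gent, and over all 7 libraries its mean lay at percentile 99.5 of the genes tested. Below it came Itga5, at a mean of 34.1 RPKM over the 7 libraries, Itga3 at 28.3 and Itgav at 21.7. A middle group followed with Itgb4 at 11.2, Itga6 at 9.81, Itgb8 at 8.09 and Itga8 at 4.48 RPKM. Itga2 at 1.78 and Itgb6 at 0.837 RPKM were the lowest. Neighbours in this order overlapped in their range over the libraries, except for Itgb1 above Itga5 and Itga8 above Itga2, so the order within the upper and the middle group is not resolved.

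**Figure D2:**
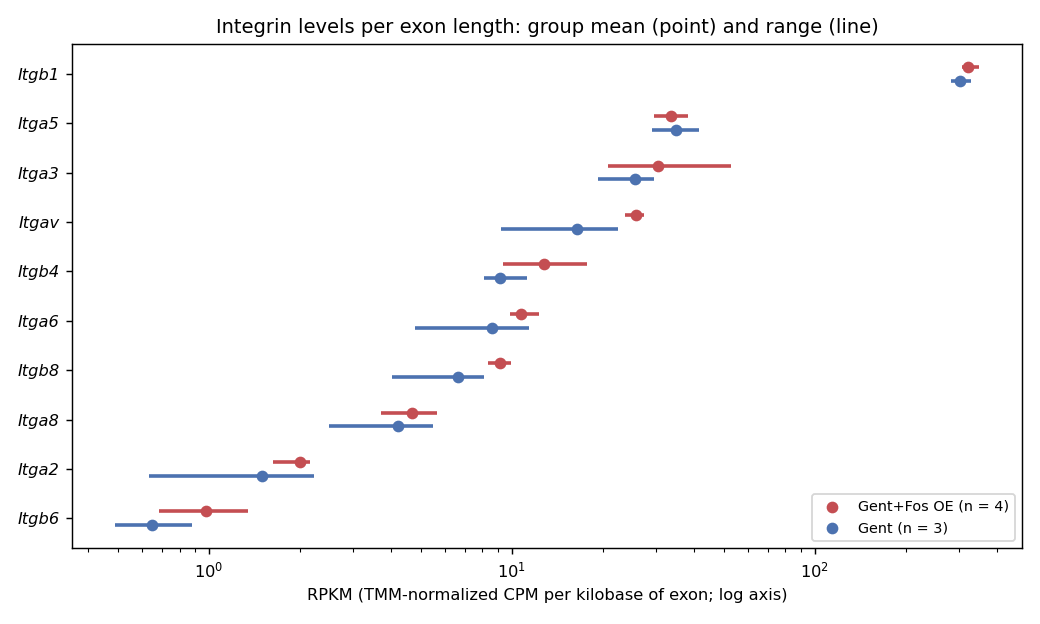
Level of each integrin gene per kilobase of exon (RPKM, log axis), with the mean of each group as a point and the lowest and highest library as a line. Itgb1 lies near 300 RPKM and no other gene of the 10 is above 53.1 RPKM in any library, with Itgb6 at the bottom.

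Among the 4 beta subunits, Itgb1 took 91.3% to 94.1% of the summed RPKM with Fos overexpression and 94.7% to 95.04% without. These shares do not overlap, but they hold for this choice of 4 genes only. The sum leaves out Itgb5, which was at 56.8 RPKM in Gent+Fos OE and 70.3 RPKM in Gent. Shares of a sum that includes Itgb5 were not computed. The shares given are those of a fixed sum, so they move with the other 3 beta subunits. Itgb4 took 2.85% to 5.30% against 2.36% to 3.78%. Among the 6 alpha subunits, Itga5 and Itga3 together with Itgav made up most of the sum. Itgav took 21.3% to 25.3% of it against 10.5% to 21.7% in Gent, where the lowest share was that of Gent replicate 2.

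Itgav, the alpha subunit of the RGD-binding receptors, came closest to a difference. It lies on chromosome 2 of mm10 from 83724397 to 83806916 on the plus strand (ENSMUSG00000027087), and 5.9% of its exonic bases overlap Gm13684, and reads from that overlap went to neither gene. Its 4 Gent+Fos OE libraries had 280.3, 293, 275 and 255 CPM, and its 3 Gent libraries had 240.4, 99.3 and 191 CPM. The groups did not overlap, and Gent replicate 2 had less than any other library. The log2 fold change was 0.64 (standard error 0.24), a fold of 1.56 with a 95% interval from 1.08 to 2.26 (edgeR adjusted p = 0.156). The exact permutation test gave p = 0.0286, the smallest that 4 against 3 libraries allow. No overlap, with Gent+Fos OE the higher group, was found for 11.3% of all genes tested, and the same with Gent the higher group for 12.2%. With the length trends removed the groups for Itgav still did not overlap, at 242 to 259 CPM against 140 to 229 CPM, the log2 fold change was 0.40 (edgeR adjusted p = 0.143), and 7.96% of genes tested were without overlap in that direction. Without Gent replicate 2 it was 0.35 (edgeR adjusted p = 0.126) and without Gent replicate 1 it was 0.92 (edgeR adjusted p = 0.0409), so the estimate depended on single Gent libraries. The stretch just before the gene is shown because Itgav was the member with the smallest p. It is the 250 bases upstream of the RefSeq start, chr2:83724147-83724396 on the plus strand of GRCm38.p6, with the CG dinucleotides in capitals:
Itgav: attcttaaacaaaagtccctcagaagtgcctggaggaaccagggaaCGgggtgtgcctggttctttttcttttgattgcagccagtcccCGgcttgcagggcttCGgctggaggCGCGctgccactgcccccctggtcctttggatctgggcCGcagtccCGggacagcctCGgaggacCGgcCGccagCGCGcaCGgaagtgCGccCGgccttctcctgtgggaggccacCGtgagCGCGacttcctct

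This stretch holds 18 CG dinucleotides, against a median of 6 over 32851 mouse windows of the same length, of which 21.7% hold at least as many. The letters TGANTCA, with any base at N, were looked for in the RefSeq windows of 250 bases before to 50 bases after each start. They are a loose form of the AP-1 motif, to which c-Fos binds together with Jun proteins, and read the same on both strands. Windows were given for 8 of the 10 integrins, 10 windows in all, and Itga6 and Itgb4 had none. The motif was in 1 of the 10 windows, that of the second start of Itga3, against 7.81% of all 32851 mouse windows. The related motif TGACGTCA, in which no TGANTCA is contained, was in 0 of the 10, against 1.79% of all windows. These are matches of letters and say nothing about binding.

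**Figure D3:**
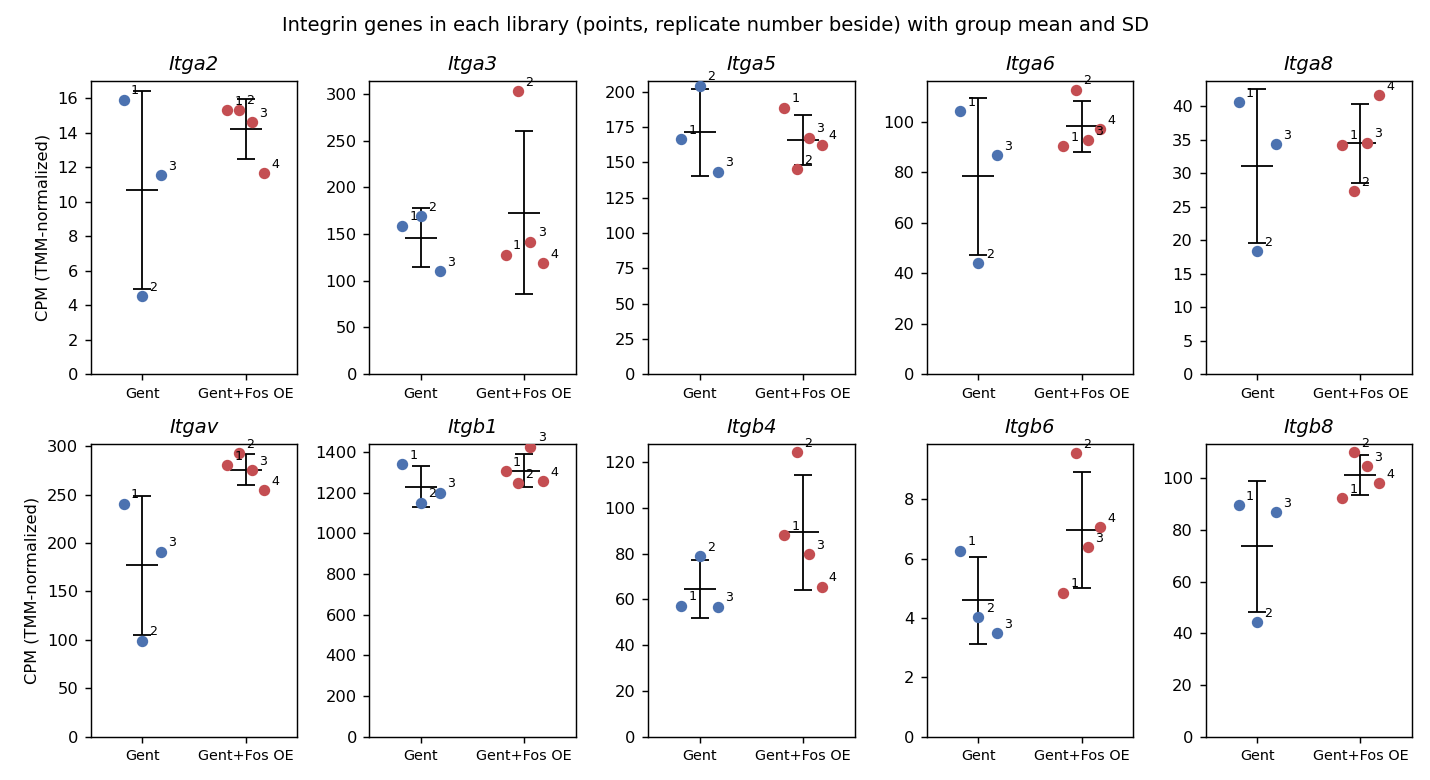
Expression of the 10 integrin genes in each library (TMM-normalized CPM; each point is 1 library with its replicate number) with the mean and SD of the group. The groups do not overlap for Itgav and Itgb8, and Gent replicate 2 and Gent+Fos OE replicate 2 are the lowest or highest point of many panels.

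Itgb8, which pairs with Itgav and holds latent TGF-beta at the cell surface, was the second member without overlap. It lies on chromosome 12 from 119158022 to 119238802 on the minus strand (ENSMUSG00000025321) and, with 11060 exonic bases, is the longest of the 10. Its Gent+Fos OE libraries had 92.3, 110.0, 105 and 98.1 CPM and its Gent libraries 89.7, 44.4 and 86.9 CPM. Gent replicates 1 and 3 lay just below the lowest Gent+Fos OE library, and Gent replicate 2 lay far below. Its log2 fold change was 0.46 (95% interval -0.02 to 0.94, edgeR adjusted p = 0.217; exact permutation p = 0.0286). After the length trends were removed the groups overlapped, at 82.2 to 97.6 CPM with Fos overexpression against 63.2 to 93.2 CPM, and the log2 fold change was 0.20 (edgeR adjusted p = 0.401). Without Gent replicate 2 it was 0.19 (edgeR adjusted p = 0.297).

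Itgb6, the epithelial partner of Itgav, was the least abundant integrin per length. It lies on chromosome 2 from 60598292 to 60722643 on the minus strand. Its values were 4.85, 9.55, 6.40 and 7.06 CPM in Gent+Fos OE and 6.26, 4.04 and 3.496 CPM in Gent. The groups overlapped through Gent replicate 1 and Gent+Fos OE replicate 1. For Itgb6 the log2 fold change was 0.60 (95% interval -0.01 to 1.21, edgeR adjusted p = 0.209; exact permutation p = 0.143), and it was 0.41 without Gent+Fos OE replicate 2 and 0.46 with the length trends removed. Per length, Itgb6 stood to Itgb8 as 0.106 ± 0.0230 (SD, n = 4) in Gent+Fos OE and 0.104 ± 0.0397 (SD, n = 3) in Gent, so no shift between these partners of Itgav was seen beyond the spread of the libraries.

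Of the RGD-binding alpha subunits that pair with beta 1, neither Itga5 nor Itga8 came near the limits. Itga5, the fibronectin receptor subunit on chromosome 15 from 103344286 to 103366763, had 189, 145, 167 and 162 CPM in Gent+Fos OE and 166, 204 and 143 CPM in Gent. Its highest library was Gent replicate 2, which was the lowest for 6 other integrins, and its groups overlapped over most of their range. With a log2 fold change of -0.05 (95% interval -0.38 to 0.29, edgeR adjusted p = 0.868) Itga5 was the only integrin of the 10 with an estimate below 0, and the interval leaves room for changes of up to 1.22-fold upward and to 0.769 of the control level downward. The sign of this estimate turned in each setting without replicate 2 of either group, and it was -0.11 with the length trends removed. Itga8, a subunit of the nephronectin receptor, lies on chromosome 2 from 12106632 to 12301922. It had 34.3, 27.3, 34.5 and 41.7 CPM in Gent+Fos OE and 40.6, 18.4 and 34.4 CPM in Gent. Both groups held high and low libraries, with Gent replicate 2 the lowest. Its log2 fold change was 0.15 (95% interval -0.39 to 0.68, edgeR adjusted p = 0.725) and was -0.13 without Gent replicate 2 and 0.02 with the length trends removed, and 5.05% of its exonic bases overlap E030013I19Rik.

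The laminin-binding subunits Itga3, Itga6 and Itgb4 gave wide intervals. Itga3, on chromosome 11 from 95044474 to 95076801 on the minus strand (ENSMUSG00000001507), had 128, 303, 142 and 119 CPM in Gent+Fos OE and 159, 169 and 110.0 CPM in Gent. Gent+Fos OE replicate 2 was at 2.34 times the mean of the other 3 libraries of its group, and those 3 lay within the range of the Gent libraries. For Itga3 the log2 fold change was 0.25 (95% interval -0.43 to 0.93, edgeR adjusted p = 0.636), and it was -0.17 without that library and 0.14 with the length trends removed. Itga3 held the only TGANTCA match in the windows of the integrins, with A at N. The 30 bases that hold it are therefore shown, at chr11:95069168-95069197 on the minus strand of GRCm38.p6, with the match in capitals:
Itga3: gggctggtgccTGAATCActggcttgctca

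The match begins at base 13, counted from 1 at the second RefSeq start of Itga3, and this start lies inside the gene as the files give it. Itga6, the laminin receptor subunit on chromosome 2 from 71745616 to 71858416, had 90.5, 113, 92.7 and 97.0 CPM in Gent+Fos OE and 104, 43.9 and 86.9 CPM in Gent. Gent replicate 1 lay within the Gent+Fos OE range, so the difference in the means came mostly from Gent replicate 2. Its log2 fold change of 0.33 (95% interval -0.21 to 0.86, edgeR adjusted p = 0.41) was 0.03 without that library and 0.14 with the length trends removed.

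Itgb4, the hemidesmosome subunit on chromosome 11 from 115974709 to 116008412, had 88.0, 124, 79.6 and 65.4 CPM in Gent+Fos OE and 57.2, 78.9 and 56.8 CPM in Gent. It is the reverse case, since its Gent replicate 2 was the highest Gent library and reached into the Gent+Fos OE range. The log2 fold change was 0.47 (standard error 0.21, 95% interval 0.00 to 0.95, edgeR adjusted p = 0.203; exact permutation p = 0.143). Without Gent replicate 2 it was 0.64 (edgeR adjusted p = 0.113), and without Gent+Fos OE replicate 2 it was 0.27 (edgeR adjusted p = 0.433). With the length trends removed the estimate for Itgb4 was 0.29 (edgeR adjusted p = 0.45). With both left out the log2 fold change was 0.44, and its edgeR adjusted p of 0.0636 was the lowest that any setting gave for Itgb4. Itgb4 stood to its only partner Itga6, per length, as 1.18 ± 0.236 (SD, n = 4) in Gent+Fos OE and 1.30 ± 0.904 (SD, n = 3) in Gent. This ratio was 2.34 in Gent replicate 2 and 0.714 and 0.852 in the other Gent libraries, below the 0.879 to 1.44 of Gent+Fos OE.

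The collagen receptor subunit and the common beta chain complete the 10. Itga2, on chromosome 13 from 114833081 to 114932100, had 15.3, 15.3, 14.6 and 11.7 CPM in Gent+Fos OE and 15.9, 4.52 and 11.6 CPM in Gent, where the highest of all 7 libraries was Gent replicate 1. Its log2 fold change of 0.42 (95% interval -0.31 to 1.14, edgeR adjusted p = 0.436) was 0.05 without Gent replicate 2 and 0.82 without Gent replicate 1. Itgb1, on chromosome 8 from 128685654 to 128733200, had 1304, 1247, 1425 and 1257 CPM in Gent+Fos OE and 1340.0, 1149.9 and 1199 CPM in Gent. The groups overlapped widely, and over all 7 libraries the values lay closer together than for any other integrin of the 10. For Itgb1 the log2 fold change was 0.09 (standard error 0.12, edgeR adjusted p = 0.66), with a 95% interval from 0.886 to 1.28 times the control level.

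The extremes of the integrin genes fell in few libraries. Gent replicate 2 was the lowest of the 7 libraries for 6 of the 10 (Itga2, Itga6, Itga8, Itgav, Itgb1 and Itgb8), and Gent replicate 3 was the lowest for the other 4. Gent+Fos OE replicate 2 was the highest for 6 (Itga3, Itga6, Itgav, Itgb4, Itgb6 and Itgb8). Against the mean of the other Gent libraries, Gent replicate 2 was lower by 0.99 to 1.57 on the log2 scale for Itga2, Itga6, Itga8, Itgav and Itgb8, which have 7133 or more exonic bases, whereas the shorter Itga3, Itga5 and Itgb4 were higher there by 0.35 to 0.47. Length did not order all members, since Itgb1, the shortest with 4081 exonic bases, and Itgb6 with 7111 were also lower there, with log2 differences of -0.14 and -0.21. In Gent+Fos OE replicate 2 the members farthest above their group were Itga3 (log2 difference 1.23), Itgb4 (0.69) and Itgb6 (0.66), and Itga8 (-0.42) was the farthest below.

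**Figure D4:**
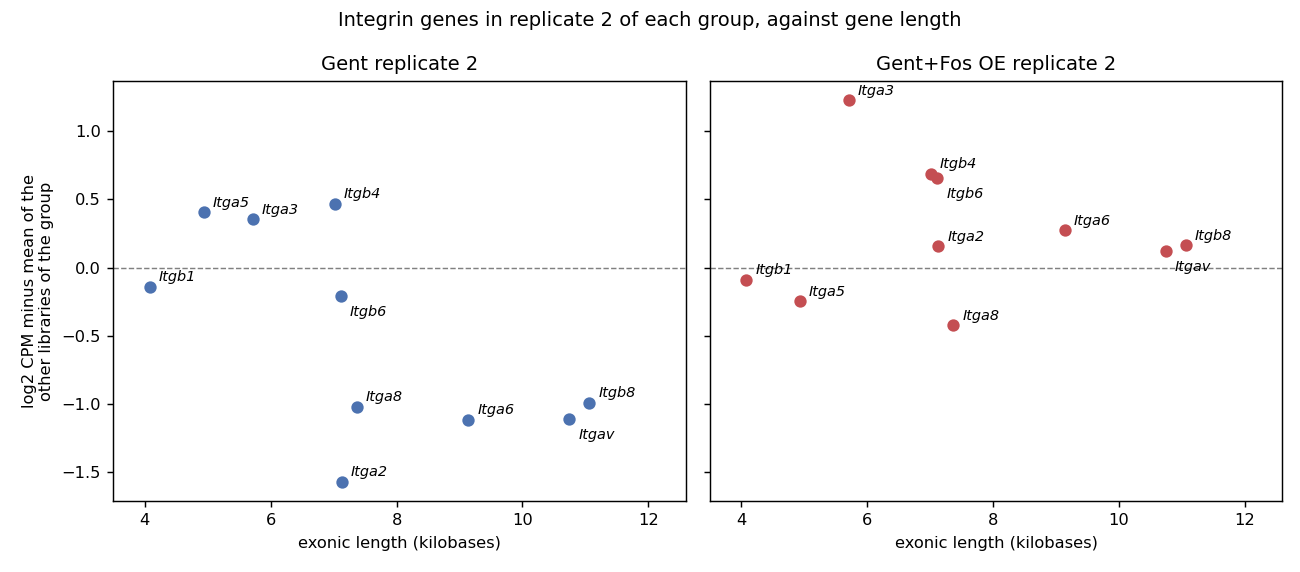
Log2 CPM of each integrin gene in replicate 2 of each group minus the mean of the other libraries of that group, against the exonic length of the gene in kilobases. In Gent replicate 2 the 5 genes at about -1 or below are those with 7133 or more exonic bases, and in Gent+Fos OE replicate 2 Itga3 stands highest at 1.23.

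Over the 7 libraries, the genes whose centred log2 CPM was nearest to that of Itgav were Cep350, Golga4 and Pfkfb2, with root mean square differences of 0.04, 0.04 and 0.05. They are long as well, at 16520, 13602 and 7254 exonic bases. Nearest to Itga5 were Ano8, Vim and Amz1, at 0.06, 0.06 and 0.07. This is a likeness over 7 libraries that share the trend with length.

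The other integrin subunits, those of blood cells and of other tissues, were read from a list of 17 genes, of which 15 were tested. None was called by edgeR or DESeq2. At an unadjusted p under 0.05 with the fold limit 2 were higher and 2 lower, where 11.1% and 13.4% of all genes tested were, and the median log2 fold change was -0.03 with 7 of 15 above 0. Itga10, a collagen-binding subunit of cartilage, had 30.6, 16.3, 29.001 and 21.8 CPM in Gent+Fos OE and 13.4, 14.7 and 15.1 CPM in Gent. The groups did not overlap, with Gent+Fos OE replicate 2 the closest to Gent. The log2 fold change of Itga10 was 0.76 (standard error 0.21, edgeR adjusted p = 0.0921), and without replicate 2 of both groups, chosen after seeing the data, it was 0.93 and passed the limits (edgeR adjusted p = 0.00491). Itgal, the alpha subunit of a leukocyte integrin, had 25.3 to 62.1 CPM in Gent+Fos OE and 54.998 to 114 CPM in Gent, with overlap (log2 fold change -0.85, standard error 0.30, edgeR adjusted p = 0.144). Without Gent replicate 1 the log2 fold change of Itgal was -0.49 (edgeR adjusted p = 0.243). Itgb3, a further partner of Itgav, had 21.6 to 26.7 CPM in Gent+Fos OE and 12.2 to 20.7 CPM in Gent, without overlap (log2 fold change 0.51, standard error 0.19, edgeR adjusted p = 0.151), and without Gent replicate 2 its log2 fold change was 0.30 (edgeR adjusted p = 0.217). Itgb5, which also pairs with Itgav and is named here after its values were seen, had 180 to 216 CPM in Gent+Fos OE and 225 to 276 CPM in Gent, the reverse order (log2 fold change -0.31, edgeR adjusted p = 0.179). Per length it was at 56.8 RPKM in Gent+Fos OE and 70.3 RPKM in Gent, above every other beta subunit named here except Itgb1.

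The genes of the ligands were read from a list of 28, all of them tested. None was called by edgeR, and DESeq2 called 3 higher, Lama3 and Npnt among them, and 0 lower. Before adjustment 7 were higher and 3 lower, against 11.1% and 13.4% of all genes tested, and 20 of 28 were above 0 with a median log2 fold change of 0.23. The laminin chains, to which Itga3, Itga6 and Itgb4 bind, were the class with the highest median. Of the 11 chains 10 were above 0, with a median of 0.59. Before adjustment 5 of the 11 were higher, against 11.1% of all genes tested, and 6 were without overlap with Gent+Fos OE higher, against 11.3%. With the length trends removed 9 of 11 were above 0 with a median of 0.25, and without replicate 2 of both groups 9 of 11 with a median of 0.34. The chains are long genes, all with 6082 or more exonic bases.

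Lama3 and Lamb3 encode chains of the laminin of hemidesmosomes, the ligand of the Itga6 and Itgb4 pair. Lama3 had 6.81, 14.3, 8.04 and 9.02 CPM in Gent+Fos OE and 5.61, 2.21 and 2.98 CPM in Gent. Its groups did not overlap, and Gent+Fos OE replicate 2 was the highest library. The log2 fold change of Lama3 was 1.41 (standard error 0.35, edgeR adjusted p = 0.0686), and DESeq2 called the gene (adjusted p = 0.00255). Without Gent+Fos OE replicate 2 it was 1.14 (edgeR adjusted p = 0.16), and without replicate 2 of both groups it was 0.89 (edgeR adjusted p = 0.076). Lamb3, named after its values were seen, had 23.7 to 47.5 CPM in Gent+Fos OE and 12.5 to 17.1 CPM in Gent (log2 fold change 0.95, edgeR adjusted p = 0.09).

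**Figure D5:**
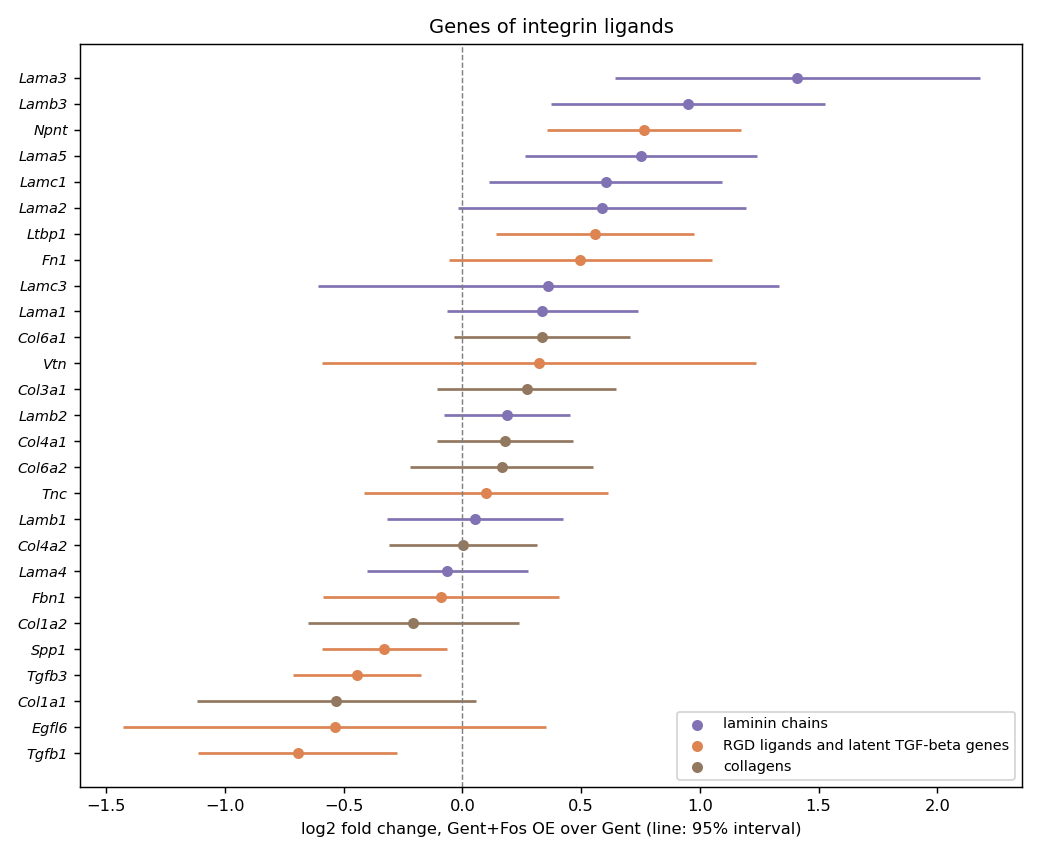
Log2 fold change with its 95% interval, Gent+Fos OE over Gent, of ligand genes, coloured by class. Lama3 and Lamb3 are at the top and Tgfb1 at the bottom, and the collagens lie around 0.

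Among the 10 genes of RGD ligands and of latent TGF-beta, 5 were above 0. Before adjustment 2 of these 10 were higher and 3 lower, against 11.1% and 13.4% of all genes tested. Npnt, which encodes nephronectin, the ligand of the Itga8 and Itgb1 pair, had 98.97, 116, 106 and 92.5 CPM in Gent+Fos OE and 69.4, 42.05 and 71.1 CPM in Gent. The groups did not overlap, with a log2 fold change of 0.76 (standard error 0.18, edgeR adjusted p = 0.0651), and DESeq2 called the gene (adjusted p = 0.00473). Without Gent replicate 2 its log2 fold change was 0.55 (edgeR adjusted p = 0.0217), and with the length trends removed it was 0.71 (edgeR adjusted p = 0.033). Without Gent+Fos OE replicates 1, 2 and 3 in turn the edgeR adjusted p of Npnt was 0.154, 0.166 and 0.182. Of the 7 collagen genes, 5 were above 0, with a median of 0.17, and 0 had an unadjusted p under 0.05 with the fold limit.

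The proteins that sit on integrin tails inside the cell were read from a list of 36 genes, all tested. None was called by edgeR, 4 were higher and 4 lower before adjustment, against 11.1% and 13.4% of all genes tested, and 21 of 36 were above 0 with a median log2 fold change of 0.04. Tns1, tensin 1, which links beta tails to actin, was the only gene of the list with an adjusted p under 0.05, a limit that 0.665% of all genes tested passed as higher and 1.19% as lower. Its values were 349, 276, 266 and 233 CPM in Gent+Fos OE and 185, 142 and 165 CPM in Gent, without overlap (log2 fold change 0.78, standard error 0.16, edgeR adjusted p = 0.0427). Tns1 has 16010 exonic bases, and with the length trends removed its log2 fold change was 0.33 (edgeR adjusted p = 0.181). DESeq2 called Tns1 higher (adjusted p = 0.000493), while the edgeR adjusted p was 0.117, 0.100 and 0.128 without Gent+Fos OE replicates 1, 2 and 3 in turn, and 0.115 without Gent replicate 3. Plec, plectin, which ties Itgb4 to keratin filaments, had 337 to 371 CPM in Gent+Fos OE and 204 to 315 CPM in Gent, without overlap (log2 fold change 0.55, standard error 0.16, edgeR adjusted p = 0.105). Plec is a long gene as well, with 18113 exonic bases, and with the length trends removed its log2 fold change was 0.076 (edgeR adjusted p = 0.766). Fermt3, the kindlin of blood cells, had 34.2 to 61.2 CPM in Gent+Fos OE and 72.9 to 83.8 CPM in Gent (log2 fold change -0.75, standard error 0.18, edgeR adjusted p = 0.0637), and DESeq2 called it lower (adjusted p = 0.00687).

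By role, the 9 genes that switch integrins on, such as the talins and kindlins, had a median log2 fold change of -0.15 and the 12 signalling genes one of 0.01. The 11 genes that link to actin had a median of 0.23 with 9 above 0, which was 0.04 with 6 above 0 once the length trends were removed. The 4 hemidesmosome genes had a median of 0.29, which was -0.01 with the length trends removed and 0.42 without replicate 2 of both groups. Ilk is not readable here, because 89.7% of its exonic bases overlap another gene and under 1 CPM was counted on it.

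Markers of the cell types in the explants moved with the groups to different degrees. Their counts stand beside shares over all genes of 11.1% higher and 13.4% lower before adjustment by edgeR, and of 1.3% and 1.56% called by DESeq2. The summed level of 10 supporting cell markers was 2831 to 3544 CPM in Gent+Fos OE and 2115 to 2498 CPM in Gent, of which Otog, called by edgeR and DESeq2, which encodes an extracellular matrix protein of the otolithic membrane, made up 830.4 to 1354 CPM and 431 to 466 CPM. EdgeR called none of the 9 other supporting cell markers, DESeq2 called Otogl higher, and Sox2 lay at 90.2 to 110.2 CPM against 79.2 to 109 CPM. The mesenchyme markers (10 genes) summed to 1526 to 2226 CPM against 1861 to 2646 CPM, with 0 called by edgeR or DESeq2 and 2 lower before adjustment. Macrophage markers summed to 727 to 1250.1 CPM in Gent+Fos OE and 1317 to 1665 CPM in Gent, without overlap. Of these 8 genes edgeR called 0, DESeq2 called Csf1r and Aif1 lower, and 5 were lower before adjustment. Itgal and Fermt3 were lower as well. Other integrin subunits of blood cells lay on both sides of 0. Their log2 fold changes were -0.37 for Itgam, -0.35 for Itgb2, 0.38 for Itgax and 0.42 for Itgb7. Melanocyte markers (6 genes, Dct and Tyrp1 called lower by edgeR, and Tyr, Pmel and Mlana as well by DESeq2) summed to 45.7 to 50.9 CPM against 87.6 to 124 CPM.

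Hair cell markers (10 genes, 0 called by edgeR, Slc17a8 called higher by DESeq2, 2 higher before adjustment, Ocm near 0) summed to 713 to 904 CPM in Gent+Fos OE and 625 to 779.7 CPM in Gent. Endothelial markers (8 genes, 0 called by edgeR, Flt1 called higher by DESeq2, 2 higher before adjustment) summed to 131 to 178 CPM against 141 to 205 CPM. Schwann cell and glial markers (8 genes, 0 called by edgeR, Pmp22 called lower by DESeq2, 3 lower before adjustment) summed to 206 to 240.4 CPM against 239 to 275 CPM, and neuronal markers (7 genes, 0 called by either tool, 2 higher before adjustment) to 47.6 to 65.1 CPM against 38.2 to 61.0 CPM. Markers of stratified epithelium (6 genes, 0 called by either tool and 0 before adjustment), a tissue rich in Itga3, Itgb4 and the hemidesmosome laminin, summed to 30.9 to 59.2 CPM in Gent+Fos OE and 28.7 to 44.0 CPM in Gent. Nearly all of that sum was Sfn, while Krt5, Krt14, Krt15, Trp63 and Col17a1 were each under 1 CPM in every library. The sum was highest in Gent+Fos OE replicate 2, the library with the highest Itga3, Itgb4, Itgb6 and Lama3. In this library the sums of supporting cell, hair cell and neuronal markers were also the highest, at 3544, 904 and 65.1 CPM. Those of mesenchyme, endothelium, macrophages and melanocytes were the lowest there. The part of any of these cell types in the integrin values was not tested.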

How the data were processed

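RNA sequencing measured whole P2 utricle explants, 4 Gent+Fos OE and 3 Gent libraries by the labels, whereas the study's methods state 3 per condition, so all 7 were used. What the authors deposited for each gene is the count of its reads, a whole number without any normalization. Per the file headers they were made with featureCounts 2.0.6 from paired-end reads and an mm10 annotation, without strand, without reads that map to several places or genes, and with both reads of a pair counted. The submitters' processing notes also name Trim Galore 0.6.10, HISAT2 2.2.1 and DESeq2 1.34.0, while the methods name mm39, so coordinates follow the files. Symbols were given to 24497 of 32285 genes whose Ensembl ID carries in GENCODE vM39 the symbol that RefSeq has at that place.

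Genes were kept by filterByExpr (17155) and fitted with TMM in edgeR 4.0.16 (R 4.3.3), by the quasi-likelihood F-test with no covariate. The reported limits are those of the study's methods. Intervals are the estimate with its standard error times the t quantile of the fit, and single genes were also compared by a two-sided exact permutation test over the 35 splits. RPKM is TMM-normalized CPM per kilobase of exon. Alternatives were DESeq2 1.42.0, limma-voom 3.58.1, normalization by RLE or by upper quartile, no filter on low counts, a filter of at least 10 counts in all libraries, a loess correction for gene length (span 0.3), the replicate number as a block with and without this correction, leaving out each library and, chosen after seeing the data, leaving out replicate 2 of both groups. The fits were tested on simulated data. Python 3.11.15 with pandas 2.3.3, scipy 1.17.1 and matplotlib 3.10.9 was used for tables and figures. Promoter windows are those of RefSeq on GRCm38.p6.

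Named were the 10 integrins, Fos, in each of the lists of other integrin subunits, ligands and adhesion complex genes every called gene or else the 3 with the smallest p at a mean of at least 1 CPM, and for the higher and the lower member with the smallest p the 3 genes nearest in centred log2 CPM. Other genes were named after their values were seen, and results of some list genes are not given. Marker lists covered hair cells, supporting cells, mesenchyme, endothelium, macrophages, melanocytes, Schwann cells and glia, neurons and stratified epithelium. Members and lists were chosen with earlier results of these data known. Nothing says whether pools shared litters, so p-values measure only the spread between pools.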

Additional observations from a re-analysis of the deposited data

Results flagged for a closer look

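In the Gent+Fos OE group, 10 integrins, 9 of the named list genes and Fos were each looked at for 1 library far from the other 3, which chance alone gives in about 1 of 20 groups. It was found for 2 of these 20 genes. Itga3 had 303 CPM in Gent+Fos OE replicate 2 against 119 to 142 CPM in the other 3 libraries, and Fos had 167 CPM in Gent+Fos OE replicate 3 against 149 to 151 CPM. The Gent group, with 3 libraries, was too small for this rule.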

How the results depend on the processing

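The counts of integrin genes called, 0 higher and 0 lower, were the same under all 17 alternatives, although these tests called up to 273 genes higher and 327 lower (DESeq2) among all genes and as few as 0 and 0 (the replicate block). Without the filter 63 and 141 genes were called, with the length correction 35 and 95, without Gent replicate 2 45 and 93, without Gent+Fos OE replicate 3 2 and 3, and without replicate 2 of both groups, chosen after seeing the data, 92 and 182. The sign of the log2 fold change held under every alternative for Itga2, Itgav, Itgb1, Itgb4, Itgb6 and Itgb8. With single libraries left out, Itga3 ranged from -0.17 (without Gent+Fos OE replicate 2) to 0.38, Itga5 from -0.16 to 0.09 (without Gent replicate 2, and 0.0098 without Gent+Fos OE replicate 2) and Itga8 from -0.13 (without Gent replicate 2) to 0.38, while Itga6 ranged from 0.03 to 0.59. Without replicate 2 of both groups the values were -0.056 for Itga3, 0.16 for Itga5, -0.037 for Itga6 and -0.027 for Itga8. The lowest edgeR adjusted p of any integrin was 0.0409, for Itgav without Gent replicate 1, and over all alternatives that of Itgav ran up to 0.294. Every library held at least 27879889 counts, and the limit set by depth was not measured apart from the spread between pools.

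No clear pairing of the libraries by replicate number was seen. The deviations from the group means of same-numbered libraries correlated at 0.06, -0.04 and 0.03 across genes. Libraries with different numbers correlated at -0.06 to 0.04. So few correlations cannot exclude pools that shared a litter or a day. With the replicate number as a block, Fos had a log2 fold change of 2.03 (edgeR adjusted p = 0.0296), no integrin was called and their median was 0.47, and Tns1 and Npnt were each at 0.85 (edgeR adjusted p = 0.0778 and 0.155). With the block and the length correction together that median was 0.21, Itgal passed the limits (log2 fold change -1.19, edgeR adjusted p = 0.00893) and Itga8 was at -0.068.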

Other observations

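Itgav with Itgb6 or Itgb8 acts on latent TGF-beta, and the genes of that complex, picked after their values were seen, did not lie on one side of 0. Tgfb1, which encodes the ligand, had 56.2, 44.9, 49.2 and 60.6 CPM in Gent+Fos OE and 74.9, 114 and 66.5 CPM in Gent, and Tgfb3 had 78.8 to 94.9 CPM against 106 to 123 CPM. For both, all libraries with Fos overexpression were below all Gent libraries. The log2 fold changes were -0.69 for Tgfb1 and -0.44 for Tgfb3, with edgeR adjusted p-values of 0.0897 for each. Ltbp1, whose protein ties the latent ligand to the matrix, had 276 to 373 CPM against 157 to 268 CPM (log2 fold change 0.56, edgeR adjusted p = 0.13). Spp1, the RGD protein osteopontin, had 1296 to 1554 CPM against 1682 to 1889.6 CPM, without overlap (log2 fold change -0.33, edgeR adjusted p = 0.146).

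Fn1, the fibronectin bound by the Itga5 and Itgb1 pair, had 4529 to 6096 CPM in Gent+Fos OE, while Gent replicate 1 at 5476 CPM lay within that range and Gent replicates 2 and 3 lay at 2876 and 2415 CPM (log2 fold change 0.50, 95% interval -0.06 to 1.05, edgeR adjusted p = 0.243). Zyx, zyxin of focal adhesions, picked after its values were seen, had a log2 fold change of -0.63 (edgeR adjusted p = 0.119).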
